A study of Mus musculus with 32 samples.

Results

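The 10 genes described here restrain or report signalling through the mitogen-activated protein (MAP) kinases: the dual-specificity phosphatases *Dusp4*, *Dusp5*, *Dusp6*, *Dusp8* and *Dusp9*, the Sprouty genes *Spry1*, *Spry2* and *Spry4*, and the transcription factors *Etv4* and *Etv5*. They were taken by name from a table of 53700 genes counted by RNA sequencing in mouse kidneys. No threshold on a measured value set the membership, but the genes were chosen by name with their fold changes and p-values in these comparisons known, so those values are descriptions. All 10 passed the filter on low counts, which left 13961 genes.

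The kidneys came from male C57BL/6 mice of the iKspCre-Pkd1del line, in which a tamoxifen-inducible Cre recombinase under the promoter of a kidney-specific cadherin removes exons 2 to 11 of *Pkd1*, the gene most often mutated in autosomal dominant polycystic kidney disease. The 12 PKD mice received 150 mg/kg tamoxifen on postnatal days 18 and 19 and were 95 days old. The 12 PKD + Salsalate mice had the same deletion and age, and ate chow with 2.5 g/kg salsalate, a dimer of salicylic acid that activates AMP-activated protein kinase, for 2 weeks from postnatal day 81. The 8 wildtype mice were of the same line, received no tamoxifen and were labelled as 109 days old, so deletion, tamoxifen and age cannot be told apart between wildtype and PKD. The study picked the cystic mice for a similarly mild phenotype, and each library came from kidney tissue of 1 mouse.

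MAP kinases are switched on by phosphorylation, and dual-specificity phosphatases switch them off again by removing the phosphates from the activation loop. Extracellular signal-regulated kinase (ERK) induces several of its own inhibitors, among them phosphatases and Sprouty proteins, so that transcripts of these genes are widely read as a record of recent ERK activity. *Etv4* and *Etv5* are ETS-family factors that receptor tyrosine kinases switch on through ERK, and in the developing kidney they act below the receptor Ret, which *Spry1* holds in check.

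The total count on genes ranged from 11193136 to 109807664 per kidney, with medians of 15737652 in wildtype, 16769080 in PKD and 18482662 in PKD + Salsalate kidneys. The lowest count of a member was 8, for *Etv4* in PKD replicate 10, and the lowest count of *Dusp6* was 215, so *Etv4* was measured with the least precision. The names of 5 wildtype libraries ended in R and those of the other 3 did not, and no name of a cystic library ended in R. What the R stands for is not given in the sources used here. The share of alignments counted on genes was 73.6% to 76.4% in the libraries ending in R and 80.9% to 83.1% in the other wildtype libraries. The cystic libraries ran from 74.1% to 82.9%. Totals of the wildtype sets also lay apart, 11278382 to 16473782 and 17011675 to 28290874. The part of these differences in the levels of the 10 genes was not tested. PKD replicate 10 carried liver transcripts, with a sum of 6784 CPM over 12 liver markers against a PKD median of 1422 CPM. *Pkd1* itself had 68.7 ± 10.9 CPM in wildtype (SD, n = 8), 92.1 ± 15.1 CPM in PKD and 92.7 ± 15.1 CPM in PKD + Salsalate kidneys (SD, n = 12 each). These counts covered the whole gene, most of which lies outside the deleted exons, and therefore checked no label. Levels are given throughout as CPM, counts scaled with TMM factors to a common library total. In whole tissue, fewer cells of a type and less RNA per cell cannot be told apart.

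Per length, *Dusp6* was the most abundant of the 10 transcripts in wildtype kidneys, with 7.10 ± 0.956 CPM per kb of merged exon (SD, n = 8). *Spry1* followed with 4.56 ± 0.787, *Dusp9* with 4.06 ± 0.507 and *Spry2* with 3.80 ± 1.01 CPM per kb, and these neighbours in the order differed by less than their SD. *Dusp4* with 2.46 and *Etv5* with 2.13 CPM per kb differed by less than the SD of *Dusp4*, though *Dusp4* was above *Etv5* in 7 of 8 wildtype kidneys. The lower end held *Spry4* at 1.12, *Dusp5* at 0.959, *Etv4* at 0.634 and *Dusp8* at 0.528 CPM per kb, where *Spry4* and *Dusp5* differed by less than their SD and *Etv4* and *Dusp8* by less than that of *Etv4*. In PKD kidneys 3 phosphatases moved by more than 1 place in this order. *Dusp9* went from place 3 to place 9 with 0.895 ± 0.185 CPM per kb, *Dusp5* from place 8 to place 4 with 2.17 ± 0.539, and *Dusp8* from place 10 to place 7 with 1.21 ± 0.299 CPM per kb (SD, n = 12). The exact places were not resolved, since *Dusp5* led *Dusp4* by 0.0153 and *Dusp8* led *Spry4* by 0.0209 CPM per kb, less than their SD. *Dusp6*, *Spry1* and *Spry2* held the 3 highest places in both cystic groups.

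**Figure D1:**
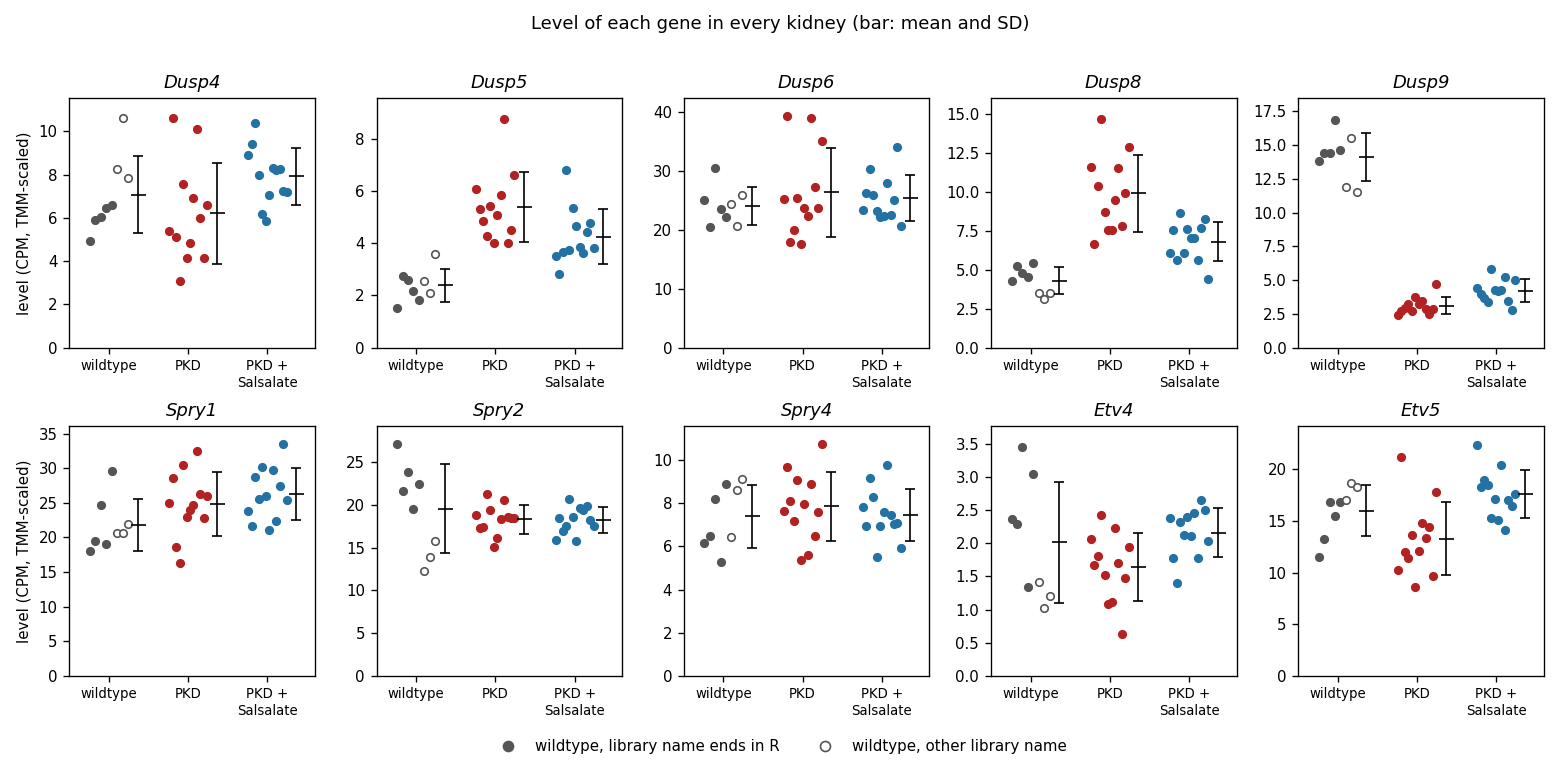
Level of each of the 10 genes in every kidney, in CPM on a linear axis that starts at 0, with the mean and SD of each group (n = 8, 12 and 12) beside the points. The 12 PKD kidneys lie above all wildtype kidneys for *Dusp5* and *Dusp8* and below all of them for *Dusp9*, and filled and open wildtype points lie apart for *Spry2*.

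Between PKD and wildtype kidneys, *Dusp5* and *Dusp8* were higher, *Dusp9* was lower, and the other 7 genes did not pass the test. Thus 3 of 10 members were called at an adjusted p under 0.05 in edgeR's quasi-likelihood fit, while 49.1% of all genes tested were called in this comparison, 24.1% higher and 25.0% lower. The median log2 fold change of the 10 genes was 0.0041, beside -0.0091 for all genes tested.

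*Dusp9* encodes a mostly cytoplasmic phosphatase that acts on ERK and, less strongly, on p38. Its level was 11.5 CPM in the lowest wildtype kidney, 14.4 CPM in the median and 16.9 CPM in the highest, while the PKD kidneys had 2.41, 2.91 and 4.73 CPM. Every PKD kidney was thus below the lowest wildtype kidney. The means were 14.1 ± 1.76 CPM (SD, n = 8) and 3.12 ± 0.645 CPM (SD, n = 12), a log2 fold change of -2.19 (SE 0.12), or 4.56-fold lower, with an adjusted p of 1.40e-15 from edgeR's quasi-likelihood test. By p-value, *Dusp9* stood at place 2 of the 13961 genes. The gene lies on chromosome X (GRCm39, 72679169 to 72687124, plus strand), and none of its exons was overlapped by another annotated gene.

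Of 8 markers of the thick ascending limb and distal tubule, 5 were called lower and none higher, beside 25.0% and 24.1% of all genes. The median log2 fold change of these markers was -0.49, and no marker was at 0 in every kidney. Their summed level was 3453 to 5645 CPM in wildtype and 3271 to 4325 CPM in PKD kidneys, ranges that overlap. The 5 that were lower, named here after their values were seen, were *Pvalb* at -1.76, *Calb1* at -1.56, *Slc12a3*, the thiazide-sensitive cotransporter, at -1.03, *Trpm6* at -0.50 and *Kcnj1* at -0.47 on the log2 scale. The other 3 did not pass, *Slc12a1* at -0.11, *Umod* at 0.15 and *Cldn16* at 0.17. Podocyte markers summed to a median of 363 CPM in wildtype and 293 CPM in PKD kidneys, and 6 of 7 were called lower. The part of these cells in the level of *Dusp9* was not tested.

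*Dusp5* encodes a nuclear phosphatase that is specific for ERK and is itself induced by ERK. In wildtype kidneys its level ran from 1.52 CPM over a median of 2.35 to 3.59 CPM, and in PKD kidneys from 4.00 over 5.18 to 8.74 CPM. The 2 ranges did not overlap. The mean went from 2.38 ± 0.638 CPM (SD, n = 8) to 5.39 ± 1.34 CPM (SD, n = 12), a log2 fold change of 1.16 (SE 0.16, edgeR adjusted p = 5.12e-07).

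*Dusp8* encodes a phosphatase directed at JNK and p38 rather than at ERK. The wildtype kidneys had between 3.11 and 5.47 CPM with a median of 4.40, and the PKD kidneys between 6.63 and 14.7 CPM with a median of 9.72. Again all 12 PKD kidneys lay above the highest wildtype kidney. The means of 4.31 ± 0.872 CPM (SD, n = 8) and 9.91 ± 2.44 CPM (SD, n = 12) gave a log2 fold change of 1.21 (SE 0.15, edgeR adjusted p = 3.52e-08). The wildtype level differed by library name, with 4.26 to 5.47 CPM in the 5 libraries ending in R and 3.11 to 3.52 CPM in the other 3, and the log2 fold change was 1.01 against the former and 1.53 against the latter.

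The kidney ranges of wildtype and PKD did not overlap for 3 of the 10 members. Of all genes tested, 5.21% had a PKD range above and 2.07% a PKD range below that of wildtype. *Dusp5*, *Dusp8* and *Dusp9* kept their calls under every alternative setting and in all 32 fits with 1 kidney left out, that without PKD replicate 10 included.

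Promoter sequences are shown for the 2 genes that were higher in PKD kidneys, since they differ in the motifs they hold. RefSeq promoters on GRCm38.p6 were at hand for 6 of the 10 genes, *Dusp5*, *Dusp6*, *Dusp8*, *Spry1*, *Spry2* and *Etv5*. The 250 bases before the transcription start were searched on both strands for the ETS motif CCGGAA, the AP-1 motif TGANTCA, the cAMP response element (CRE) TGACGTCA and the CArG box, which serum response factor binds. The sequences run 5′ to 3′ on the strand of the gene and end at the base before the start, with motifs in capitals. *Dusp5* is on the plus strand at chr19:53528895-53529144, and *Dusp8* on the minus strand at chr7:142095285-142095534.
Dusp5: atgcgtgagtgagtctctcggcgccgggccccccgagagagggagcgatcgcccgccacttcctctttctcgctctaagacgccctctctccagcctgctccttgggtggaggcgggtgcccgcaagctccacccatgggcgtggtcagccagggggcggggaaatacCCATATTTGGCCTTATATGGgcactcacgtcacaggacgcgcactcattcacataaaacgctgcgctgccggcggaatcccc
Dusp8: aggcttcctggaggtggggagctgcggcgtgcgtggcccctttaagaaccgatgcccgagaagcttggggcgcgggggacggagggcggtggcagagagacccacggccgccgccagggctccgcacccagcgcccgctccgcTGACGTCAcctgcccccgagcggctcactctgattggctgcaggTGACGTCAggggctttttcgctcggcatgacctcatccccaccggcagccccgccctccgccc

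The *Dusp5* sequence held 2 CArG boxes side by side, 82 to 73 and 72 to 63 bases before the start. At least 1 CArG box was found in 1.47% and at least 2 in 0.0183% of 32851 RefSeq promoters of this length. The *Dusp8* sequence held 2 copies of the CRE, 107 to 100 and 63 to 56 bases before the start, where 1.55% of promoters had at least 1 copy and 0.0304% at least 2. Both motifs read the same on either strand and were counted once per place, and none of the 4 places overlapped another. The ETS motif CCGGAA, present in 12% of promoters, and the AP-1 motif, present in 6.75%, were in none of the 6 genes, and the windows of *Dusp6*, *Spry1*, *Spry2* and *Etv5* held none of the 4 motifs. The shorter ETS core GGAA was not searched for. It occurs in both sequences above, in that of *Dusp8* on the other strand, and so does not set them apart. A match describes the letters of these windows and is not a measurement of binding.

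*Dusp6*, a cytoplasmic phosphatase widely used as a readout of ERK activity, had 20.5 to 30.4 CPM in wildtype kidneys with a median of 24.0 CPM. In PKD kidneys it had 17.5 to 39.3 CPM with a median of 24.5 CPM. The groups overlapped, with 3 PKD kidneys above the highest and 3 below the lowest wildtype kidney, and the log2 fold change of 0.14 had a 95% interval of -0.12 to 0.40. *Dusp4*, a nuclear phosphatase for ERK, JNK and p38, had 7.08 ± 1.78 CPM in wildtype (SD, n = 8) and 6.21 ± 2.32 CPM in PKD kidneys (SD, n = 12), with a log2 fold change of -0.17 and an interval of -0.52 to 0.18. Its wildtype sets did not overlap, with 4.92 to 6.61 CPM in the libraries ending in R and 7.84 to 10.6 CPM in the others. The coefficient of variation over kidneys was larger in PKD than in wildtype for both, 28.6% against 13.5% for *Dusp6* and 37.4% against 25.1% for *Dusp4*.

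The Sprouty genes encode membrane-associated inhibitors that act between receptors and RAS or RAF. *Spry1* had 21.7 ± 3.76 CPM in wildtype and 24.8 ± 4.57 CPM in PKD kidneys, a log2 fold change of 0.20 (edgeR adjusted p = 0.119), and 10 of 12 PKD kidneys were above the wildtype median. It passed the test without wildtype replicate 5 or PKD replicate 4. *Spry4* had 7.40 ± 1.47 and 7.86 ± 1.60 CPM, a log2 fold change of 0.091 with an interval of -0.16 to 0.34.

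*Spry2* had 19.5 ± 5.18 CPM in wildtype and 18.3 ± 1.72 CPM in PKD kidneys, and its log2 fold change was -0.083 (edgeR adjusted p = 0.503). That value covered 2 unlike sets of wildtype libraries. The 5 wildtype libraries with names ending in R had 19.6 to 27.1 CPM, and the other 3 had 12.2 to 15.7 CPM. The 12 PKD kidneys had 15.1 to 21.2 CPM and overlapped both sets. Against the former 5 alone, *Spry2* was lower in PKD kidneys, with a log2 fold change of -0.32 (edgeR adjusted p = 0.000430). Against the other 3 alone it was higher, with a log2 fold change of 0.38 (edgeR adjusted p = 0.00129). The difference between PKD and wildtype therefore had no stable direction for this gene.

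*Etv4* had unlike means in the wildtype sets, whose ranges overlapped, with 2.50 ± 0.807 CPM in the 5 wildtype libraries ending in R and 1.21 ± 0.196 CPM in the other 3, while PKD kidneys had 1.64 ± 0.516 CPM. Against all 8, the log2 fold change was -0.24 (edgeR adjusted p = 0.335). It was -0.59 (edgeR adjusted p = 0.0156) against the 5 and 0.43 (edgeR adjusted p = 0.158) against the 3. *Etv5* had 11.6 to 18.7 CPM in wildtype with a median of 16.8 CPM, and 8.61 to 21.2 CPM in PKD kidneys with a median of 12.7 CPM. Here, too, the wildtype sets lay apart, with 11.6 to 16.8 CPM in the libraries ending in R and 17.1 to 18.7 CPM in the others. Of the PKD kidneys, 10 of 12 were below the wildtype median, and the log2 fold change of -0.26 did not pass the test (edgeR adjusted p = 0.0721). It passed against the 3 wildtype libraries without R alone, at -0.44 (edgeR adjusted p = 0.0332), without wildtype replicate 1 or PKD replicate 2 or 12, and with DESeq2's Wald test, at -0.28 (adjusted p = 0.0484).

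**Figure D2:**
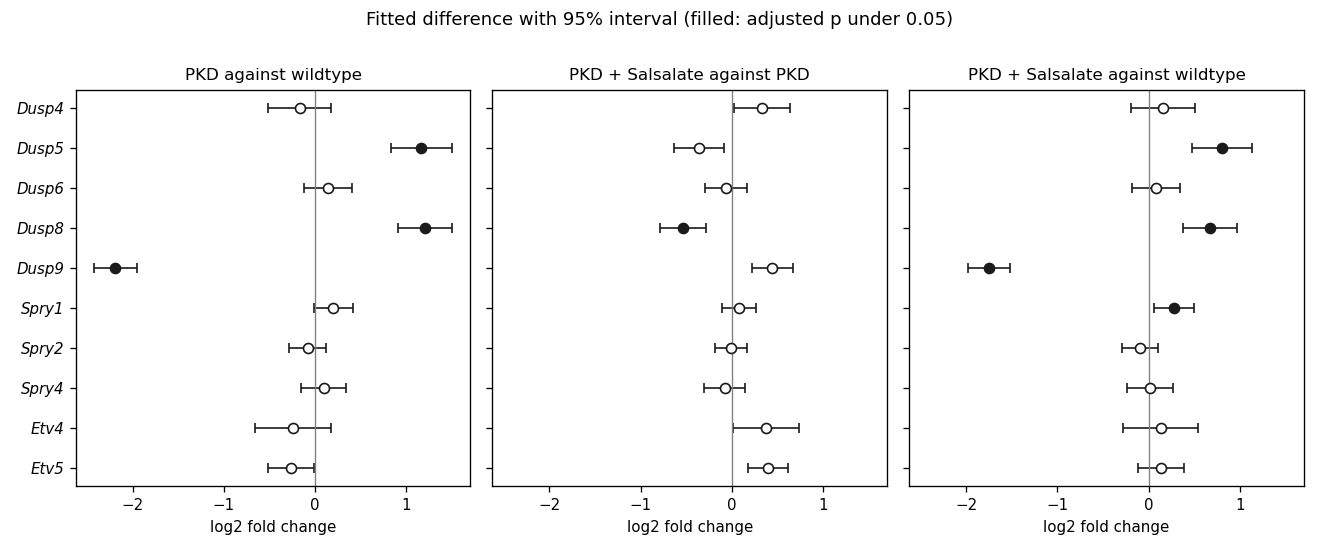
Log2 fold change of each gene in the 3 comparisons, with the 95% interval of edgeR's quasi-likelihood fit and the same horizontal axis in all panels, where filled points had an adjusted p under 0.05. *Dusp9* is the one filled point on the negative side against wildtype, and *Dusp8* is the filled point in the middle panel at -0.54.

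Between PKD + Salsalate and PKD kidneys, *Dusp8* was lower and no other member passed the test. This is 1 of 10 members, beside 0.580% of all genes tested, or 81 genes, 0.251% higher and 0.329% lower. The kidney ranges overlapped for each of the 10, as they did for all but 0.0287% of genes. At an unadjusted p under 0.05 stood 6 members, *Dusp4*, *Dusp5*, *Dusp8*, *Dusp9*, *Etv4* and *Etv5*, beside 10.3% of all genes. The PKD group is shared with the comparison above, so a high or low value in it moves both comparisons in opposite directions.

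*Dusp8* had 4.41 to 8.67 CPM in PKD + Salsalate kidneys with a median of 7.05 CPM, against 6.63 to 14.7 CPM in PKD kidneys. The groups overlapped, but all 12 treated kidneys were below the PKD median and 5 were below the lowest PKD kidney. The mean fell from 9.91 ± 2.44 to 6.81 ± 1.26 CPM (SD, n = 12 each), which gave a fitted log2 change of -0.54 (SE 0.12, edgeR adjusted p = 0.0292). The call held in 23 of 32 fits with 1 kidney left out, with adjusted p between 0.0135 and 0.0611. It was lost without PKD replicate 1, 4, 9 or 11 and without PKD + Salsalate replicate 1, 3, 5, 9 or 12.

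*Dusp9* had 2.82 to 5.83 CPM in PKD + Salsalate kidneys with a median of 4.26 CPM, and 11 of 12 were above the PKD median. Its log2 fold change was 0.44 (SE 0.11) and its adjusted p of 0.0517 in edgeR's test missed the threshold. DESeq2's Wald test, as an alternative, gave an adjusted p of 0.0150. In edgeR's fit it passed without 1 of 8 kidneys: wildtype replicate 4 or 7, PKD replicate 6, 8 or 12, and PKD + Salsalate replicate 4, 10 or 11. *Etv5* had 14.1 to 22.4 CPM with a median of 17.4 CPM, and 12 of 12 treated kidneys were above the PKD median of 12.7 CPM. Its log2 fold change of 0.40 (SE 0.11) missed the threshold in edgeR's fit (adjusted p = 0.0805) and passed it in DESeq2's (adjusted p = 0.0274), and without PKD replicate 2, the PKD kidney with the most *Etv5*, edgeR's adjusted p was 0.0178. It also passed without PKD replicate 12.

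The remaining differences were smaller against their error. *Dusp4* was at 7.92 ± 1.30 CPM in treated kidneys, with a log2 fold change of 0.33 (edgeR adjusted p = 0.436) and 12 of 12 treated kidneys above the PKD median. *Etv4* was at 2.16 ± 0.364 CPM, with a log2 fold change of 0.37 (edgeR adjusted p = 0.462) and 11 of 12 above. *Dusp5* was at 4.25 ± 1.04 CPM, with a log2 fold change of -0.36 (edgeR adjusted p = 0.268), and 7 of 12 treated kidneys were below the lowest PKD kidney. *Dusp6*, at 25.3 ± 3.89 CPM, had a log2 fold change of -0.061 with a 95% interval of -0.29 to 0.17. For *Spry1*, *Spry2* and *Spry4* the log2 fold changes were 0.076, -0.011 and -0.080, and the widest of their intervals was that of *Spry4*, from -0.30 to 0.14.

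Against wildtype, 4 of 10 members were called in PKD + Salsalate kidneys, beside 44.9% of all genes tested, 21.8% higher and 23.2% lower. *Dusp9* was lower, with a log2 fold change of -1.75 (SE 0.11, edgeR adjusted p = 1.64e-13), and its range still lay below that of wildtype, as did that of 1.93% of all genes. *Dusp5* was higher by 0.80 (SE 0.16, edgeR adjusted p = 0.000160) and *Dusp8* by 0.67 (SE 0.15, edgeR adjusted p = 0.000363) on the log2 scale. Both sizes depended on the wildtype libraries. The log2 fold change of *Dusp8* was 0.48 with the R libraries as wildtype and 1.00 with the other 3, and that of *Dusp5* was 0.96 and 0.60, with all 4 values called. In means, the treated kidneys kept 89.9% of the CPM difference between PKD and wildtype for *Dusp9*, 62.1% for *Dusp5* and 44.7% for *Dusp8*. These shares are given without a spread and use all 8 wildtype kidneys. Of these genes, only *Dusp8* was called between PKD + Salsalate and PKD kidneys. *Spry1* was higher at 26.3 ± 3.79 CPM, with a log2 fold change of 0.28 (SE 0.11, edgeR adjusted p = 0.0341) and 12 of 12 treated kidneys above the wildtype median. That last call was lost without wildtype replicate 1, 2, 4 or 6, without PKD + Salsalate replicate 3, 5, 8 or 11, and against either set of wildtype libraries alone.

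Other genes of the pathway were taken from 7 lists. Between PKD and wildtype kidneys, of 18 genes of the RAS-RAF-MEK-ERK cascade, 2 were called higher and 5 lower, with a median log2 fold change of -0.055. Of all genes tested, 24.1% were called higher and 25.0% lower, shares that hold for each count in this comparison. The 3 largest changes were *Hras*, a RAS GTPase, at -0.61, *Sos2*, an activator of RAS, at -0.34 and *Map2k2*, an ERK kinase, at -0.26. In the JNK and p38 cascades, whose MAP kinases are targets of the *Dusp8* product, 2 of 10 genes tested were lower, near the 25.0% of all genes. These were the p38 genes *Mapk12* at -0.64 and *Mapk14* at -0.16. No gene of this list was higher, beside 24.1% of all genes.

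Further down the pathway, of 10 other ERK output genes, 7 were called higher and 2 lower, with a median log2 fold change of 0.74, beside -0.0091 for all genes tested. The immediate early gene *Egr1* had 6.30 CPM in wildtype and 33.3 CPM in PKD kidneys, a log2 fold change of 2.41. The membrane protein gene *Emp1* was higher by 1.39 and the proto-oncogene *Myc* by 1.36 on the log2 scale. Among 11 other inhibitors of RAS-ERK signalling, 4 were higher and 1 was lower, with a median of 0.068. *Rgs16*, a regulator of G protein signalling, led with 3.31, followed by *Socs3*, a suppressor of cytokine signalling, with 2.42 and *Il17rd*, also known as Sef, with 0.88. Of the 3 other phosphatases tested, *Dusp1*, *Dusp7* and *Dusp16*, none was called, and their log2 fold changes were between -0.062 and 0.15.

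Of 12 receptor genes tested, 7 were called higher and 1 lower, with a median of 0.29, beside 24.1% higher and 25.0% lower of all genes. *Egfr*, the receptor for epidermal growth factor, had a log2 fold change of 0.75 and *Pdgfrb*, a receptor for platelet-derived growth factor, of 0.73. *Gfra1*, the co-receptor of Ret, had a log2 fold change of -0.75. *Pdgfrb* also stands in the list of fibroblast and pericyte markers below, so the counts of these lists are not independent. All 10 proliferation genes were higher, with a median of 2.21, led by *Mki67* at 2.77, *Aurkb* at 2.47 and *Cdk1* at 2.41. The genes of 6 of the 7 lists did not pass the test between PKD + Salsalate and PKD kidneys. Among all genes tested, 0.251% were called higher and 0.329% lower there, so 0 calls do not set these lists apart. In the same comparison 4 of the 10 proliferation genes were lower, with *Bub1* at -0.72, *Top2a* at -0.65 and *Ccnb2* at -0.60. At an unadjusted p under 0.05 were all 10 proliferation genes, 5 of 10 other ERK outputs, 3 of 11 other inhibitors, 1 gene each of both kinase lists and 0 receptors or other phosphatases, beside 10.3% of all genes. The other ERK outputs had a median of -0.21 in that comparison. With 1 kidney left out, the count of proliferation genes called moved by over 1.5 times in 17 of 32 fits and ran from 2 to 10, the highest without PKD + Salsalate replicate 11. It was 7 with DESeq2's Wald test, 8 with limma-voom and 2 with no filter on low counts. The counts against wildtype depended on the wildtype libraries used. Against those ending in R alone, 9 of the 11 other inhibitors were called in PKD kidneys in place of 5, and against the other libraries, 5 genes of the JNK and p38 cascades in place of 2 and 5 receptors in place of 8.

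**Figure D3:**
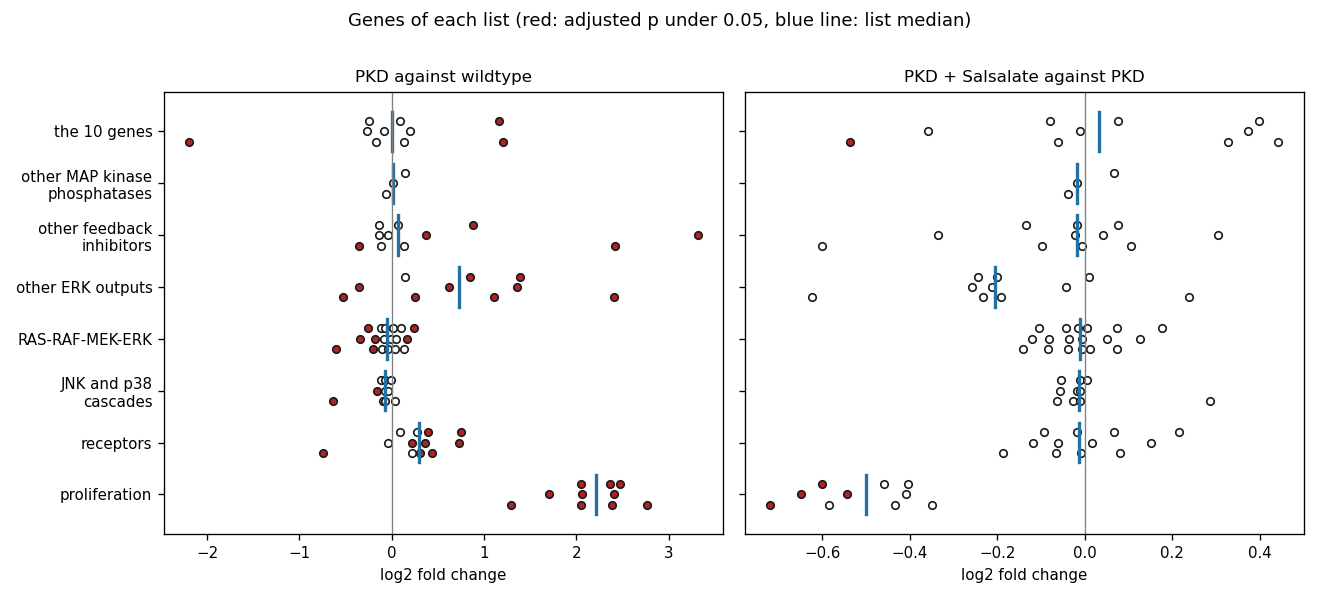
Log2 fold change of every tested gene of the 10-gene set and of 7 pathway lists, between PKD and wildtype (left) and PKD + Salsalate and PKD (right), with a different horizontal scale in each panel. Red points had an adjusted p under 0.05, the blue lines are list medians, and the proliferation list has the highest median on the left panel, 2.21, and the lowest on the right panel, -0.50.

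Markers of other cells differed between PKD and wildtype kidneys as well. The counts below stand beside 24.1% of all genes tested called higher and 25.0% called lower. The summed level of 10 tubular injury markers was 516 to 855 CPM in wildtype, 1696 to 3466 CPM in PKD and 1456 to 4329 CPM in PKD + Salsalate kidneys, and 10 of 10 were called higher in PKD kidneys. The sum of 10 fibroblast and pericyte markers was 392 to 592, 870 to 1437 and 819 to 1785 CPM, with 9 of 10 called higher. Leukocyte markers summed to 149 to 245, 352 to 528 and 307 to 588 CPM, with 8 of 8 tested called higher. The medians of the collecting duct sum were 717, 715 and 750 CPM, and 1 of 10 of its markers was called higher and 4 lower in PKD kidneys, with log2 fold changes from -1.46 to 0.38. The medians of the endothelial sum were 695, 718 and 709 CPM, with 3 of 10 called higher and 4 lower, from -0.83 to 0.70. Between PKD + Salsalate and PKD kidneys, 0 markers of these 5 lists were called, beside 0.580% of all genes tested. At that share, 0 calls do not set these lists apart. The defining markers of the proximal tubule, with medians of 17386, 17361 and 16224 CPM, were present in every group. No marker of any list was at 0 in every kidney, and the part of these cells in the levels of the 10 genes was not tested.

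Within the cystic groups, the members did not vary as one set. Deviations of log2 CPM from the group mean were compared over the 24 cystic kidneys. Of 45 pairs of members, 8 had a Pearson correlation over 0.5 and none below -0.5, and the median was 0.19. The highest values joined *Dusp4* with *Dusp6* (r = 0.72), *Dusp6* with *Spry1* (r = 0.70) and *Dusp4* with *Etv5* (r = 0.69). *Dusp9* had its lowest value with *Dusp6* (r = -0.31) and no value over 0.5 with any member.

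Tests were run for 6 pairs, with p-values from 100000 permutations within groups, adjusted over the 6. *Dusp6* varied with *Spry4*, with r of 0.61 and rho of 0.61 (permutation adjusted p = 0.0164 for r and 0.0175 for rho, n = 24), and r was 0.57 without the 2 kidneys farthest from the *Dusp6* median. Within PKD kidneys r was 0.68 and within PKD + Salsalate kidneys 0.48. *Dusp6* varied with *Etv5*, with r of 0.62 and rho of 0.59 (permutation adjusted p = 0.0164 and 0.0175), and r was 0.55 without the 2 farthest kidneys. Here r was 0.73 in PKD kidneys and 0.24 in PKD + Salsalate kidneys, where it did not pass the test (permutation adjusted p = 0.533).

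*Dusp8* varied with *Mki67*, the proliferation marker, with r of 0.49 and rho of 0.52 (permutation adjusted p = 0.0282 and 0.0232), and r was 0.53 without the 2 farthest kidneys. It was 0.72 in PKD + Salsalate kidneys alone and 0.29 in PKD kidneys alone (permutation adjusted p = 0.0469 and 0.543). The pairs *Etv4* with *Etv5* (r = 0.12), *Spry1* with *Spry2* (r = 0.20) and *Dusp4* with *Dusp5* (r = 0.30) did not pass. For *Dusp4* with *Dusp5*, r was 0.67 in PKD kidneys and -0.46 in PKD + Salsalate kidneys, and whether these differ was not tested. Depth and the makeup of the tissue are shared by all genes of a kidney, and their part in these correlations was not tested.

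**Figure D4:**
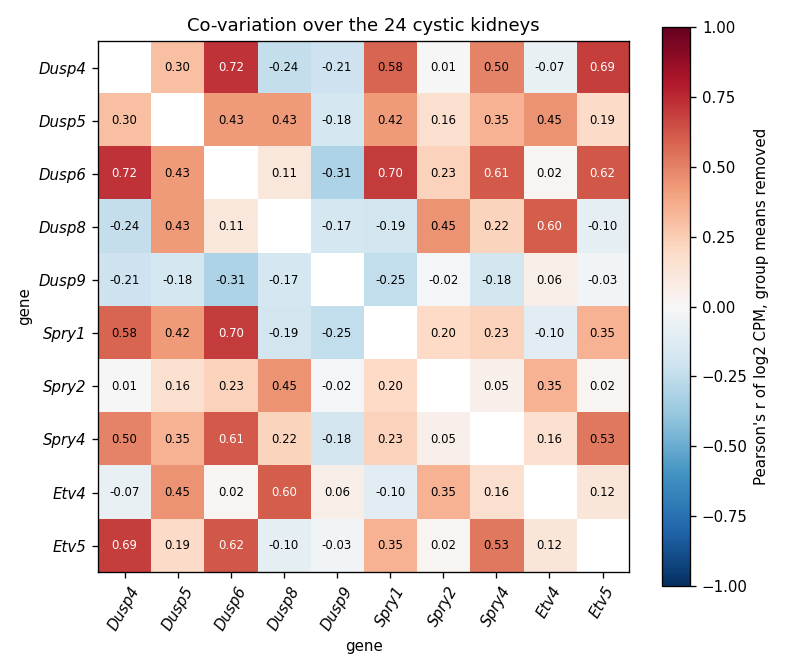
Pearson correlation between each pair of the 10 genes over the 24 cystic kidneys, after removal of the group means, from blue (-1) to red (1). *Dusp4*, *Dusp6*, *Spry1*, *Spry4* and *Etv5* hold 7 of the 8 pairs over 0.5, and the highest value in the *Dusp9* row is 0.057.

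As a description without a test, the tested genes most like each member were sought over all 32 kidneys by the same deviations from group means. *Dusp9* was most like *Atp2b2*, a plasma membrane calcium pump (r = 0.71), *Ppp1r1b* (r = 0.66) and *Ccdc149* (r = 0.62). *Dusp8* was most like *Samd5* (r = 0.83), *Ppp1r14b* (r = 0.79) and *Fam124a* (r = 0.79). *Dusp5* was most like *Chst12* (r = 0.76), the injury keratin *Krt20* (r = 0.74) and the integrin gene *Itgb4* (r = 0.73). *Dusp4* and *Etv5* shared *Dhx32* among their 3 most like genes, with r of 0.89 and 0.79, beside *Opa1* (0.85) and *Zgpat* (0.85) for *Dusp4* and *Arhgap35* (0.80) and *Washc5* (0.80) for *Etv5*.

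*Dusp6* was most like *Eeig2* (r = 0.83), *Picalm* (0.82) and *Gnai3* (0.82), *Spry1* like *Zfp608* (0.77), *Rtl5* (0.75) and *Anxa5* (0.74), and *Spry4* like *Snx30* (0.70), *Tfcp2l1* (0.69) and *Eeig1* (0.68). *Etv4* was most like *Rinl* (0.84), *Slfn2* (0.79) and *Nova1* (0.79). The genes most like *Spry2*, *Epha3* (0.87), *5730409E04Rik* (0.86) and *Mitd1* (0.85), had r of 0.52, 0.55 and 0.43 over the 24 cystic kidneys, so that their likeness rested in part on the wildtype libraries.

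Exons annotated on the other strand overlapped 7 of the 10 genes, by up to 23.0% of the exon length for *Dusp6*, and the partners found in the table had at most 0.572 CPM in any kidney. Reads were counted by strand, and no exon of a member was overlapped on its own strand.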

How the data were processed

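Poly(A) RNA of kidney tissue was sequenced by strand (NEBNext Ultra II Directional, NovaSeq6000). The authors trimmed reads with cutadapt 2.10, aligned them with STAR 2.7.5a to GRCm39, and deposited raw counts per gene made with HTSeq 0.12.4, not normalized. Groups and replicate numbers came from the sample labels, and wildtype sets from library names. Summary lines of uncounted alignments were left out of library totals, and between 73.6% and 83.1% of alignments per kidney were counted on genes. All columns of per-kidney counts were used.

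The tools were edgeR 4.0.16 in R 4.3.3, and limma 3.58.1 and DESeq2 1.42.0 for alternatives. A gene was tested if its log2 CPM exceeded 1 in 25% or more of the 32 kidneys. After TMM scaling, 1 model held all 3 groups, with no covariate, and contrasts were tested 2-sided with edgeR's quasi-likelihood test, with Benjamini-Hochberg adjustment over all 13961 genes and a threshold of 0.05. Fold changes are fitted values, and intervals cover 95%. Correlations used log2 CPM with a prior count of 2, and permutation p-values used 100000 draws. The fit was also run on simulated counts in which genes changed only in the PKD + Salsalate group. That simulation held no difference between PKD and wildtype or between the wildtype sets, so it cannot show how the fit handles either.

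Exon lengths and overlaps came from GENCODE M39 on GRCm39, another release of the annotation than the authors', in which 52610 of 53700 identifiers were found. The members, pathway lists and marker lists were chosen with earlier results of these data known. Named genes are the 10 members, *Pkd1*, the 3 called genes with the largest change of each pathway list and comparison, and the 3 genes most like each member. The distal tubule markers and the pathway genes that were not called were named outside this rule, after their values were seen. *Spry3* was not found in the table. Nothing in the labels says that replicates with the same number in different groups belong together. Each kidney was a separate mouse, and p-values measure the spread between these mice.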

Additional observations from a re-analysis of the deposited data

How the results depend on the processing

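Over 9 settings other than leaving out a kidney, 270 values of the 10 genes were recomputed, and 245 kept their direction and side of the threshold, while 12 became significant, 4 lost significance and 9 changed sign. Between PKD and wildtype, 3 members passed the threshold, while 5 passed when wildtype was reduced to its R libraries and 5 when it was reduced to the other libraries, and 4 with DESeq2's Wald test. Between PKD + Salsalate and PKD, 1 member passed, and 3 passed with DESeq2's Wald test, 2 with edgeR's filterByExpr, 2 with the R libraries as the only wildtype and 3 with the others. Of all genes, 81 passed there, and 199 passed with DESeq2's Wald test, 146 with limma-voom, 195 in a fit of only the 2 groups compared, 145 with the R libraries as the only wildtype and 257 with the others. With 1 kidney left out, that count was lowest, 39, without replicate 5 and highest, 226, without replicate 11 of the PKD + Salsalate group, and 0 to 3 members were called. In the same fits, the members called against wildtype numbered 3 to 4 in PKD and 3 to 4 in PKD + Salsalate kidneys. In PKD + Salsalate kidneys, 4 members passed against the R libraries alone and 5 against the other wildtype libraries alone. There *Spry2* was lower against the former (-0.33, edgeR adjusted p = 0.000309) and higher against the latter (0.37, edgeR adjusted p = 0.00180). *Etv4* was higher against the latter (0.81, edgeR adjusted p = 0.0108). The cause of these moves was not tested.

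With only the R libraries as wildtype, the log2 fold change of *Dusp4* in PKD kidneys was 0.082 and that of *Etv4* in PKD + Salsalate kidneys -0.22, both of the opposite sign. With only the others, the sign changed in PKD kidneys for *Spry2* (0.38), *Spry4* (-0.037) and *Etv4* (0.43), and in PKD + Salsalate kidneys for *Dusp4* (-0.16), *Spry2* (0.37), *Spry4* (-0.11) and *Etv5* (-0.036). The correlation of *Dusp4* with *Dusp5* was -0.46 in PKD + Salsalate kidneys alone. With 1 kidney left out, values near 0 crossed it: *Dusp6* (-0.10 to 0.0074) and *Spry2* (-0.033 to 0.0083) between PKD + Salsalate and PKD, and *Spry4* (-0.046 to 0.064) between PKD + Salsalate and wildtype.

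With the replicate number as a block, 0 members and 48 of all genes passed between PKD + Salsalate and PKD, with *Dusp8* at -0.53 (edgeR adjusted p = 0.0868), and *Spry1* against wildtype had an adjusted p of 0.0741. Same-numbered kidneys of different groups had correlations of their deviations between -0.55 and 0.47 over 28 pairs, with a median of -0.054 and 8 over 0.1. Kidneys with different numbers were not compared in this way, so whether same-numbered kidneys share more than a number was not tested.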
